A study of Mus musculus with 8 samples.

Results

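The genes described here encode the major histocompatibility complex (MHC) class I antigen presentation pathway, and they were followed in BMEL cells, a bipotential mouse embryonic liver cell line. They were chosen by name for their role in the pathway and not by their values. The 10 genes are B2m, H2-K1, H2-D1, Tap1, Tap2, Tapbp, Psmb8, Psmb9, Psmb10 and Nlrc5, and all 10 are among the 18671 genes of the table. RNA-seq was performed on 8 samples, all collected 48 h after transfection. In 4 of them the cells received a plasmid that carries human GRHL2 cDNA with a Flag tag behind the EEF1A1 promoter, together with EGFP, and in the other 4 the empty pcDNA3 plasmid (control). The plasmids therefore differ by more than GRHL2, and as the transfection was transient, each sample may hold transfected and untransfected cells. The comparison asks how the transcriptome responds to GRHL2, a transcription factor of epithelial cells.

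In this pathway, the proteasome cuts cytosolic proteins into peptides, a transporter carries the peptides into the endoplasmic reticulum, and a loading complex places them on class I molecules, which show them to cytotoxic T cells at the cell surface. A class I molecule pairs a polymorphic heavy chain with beta-2 microglobulin. Interferons are known to raise most of these genes together, through IRF factors and through NLRC5, a coactivator that acts on the conserved promoter module of class I genes.

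The values are on a log2 scale and are expressed per transcript length, so that levels can be compared between genes, and a difference of 1 is a doubling of the linear value. They derive from the regularized logarithm (rlog), which pulls the differences of genes with few reads towards 0. The depth of the samples is unknown. The Grhl2 entry of the table was between 5.65 and 6.96 in the GRHL2 samples and between 4.42 and 4.68 in control samples, without overlap and in the direction of the labels. Reads of the human transgene may count towards this mouse entry, and these sources cannot be told apart here. Of 12 markers of liver progenitors and epithelial cells, 3 were higher (Epcam, Krt7 and Cdh1) and 1 was lower (Afp, alpha-fetoprotein) with GRHL2. The shares over all genes were 10.5% and 5.91%. With the replicate number as a block, 7 were higher and 1 lower, against 18.2% and 13.9% of all genes. Samples that share a number shifted together around the mean of their group, so a second fit had that number as a block, and its calls are added where they differ.

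Of the 10 genes, only H2-D1 rose with GRHL2 (limma, no block, threshold of 0.05 on the adjusted p), and none fell. Across all genes, 10.5% were called higher and 5.91% lower, 16.4% in all, so 1 gene of 10 is near the background. With the replicate block, H2-D1, H2-K1 and Tapbp were called higher and none lower, against a background of 18.2% higher and 13.9% lower. The same backgrounds hold for the gene lists described further on. Among the 10 genes, log2 fold changes were positive for 6 and negative for 4. Their median was 0.03 over the 10 genes and 0.01 over all 18671 genes. These are values of bulk RNA, in which fewer cells that express a gene and less of its RNA per cell cannot be told apart.

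**Figure D1:**
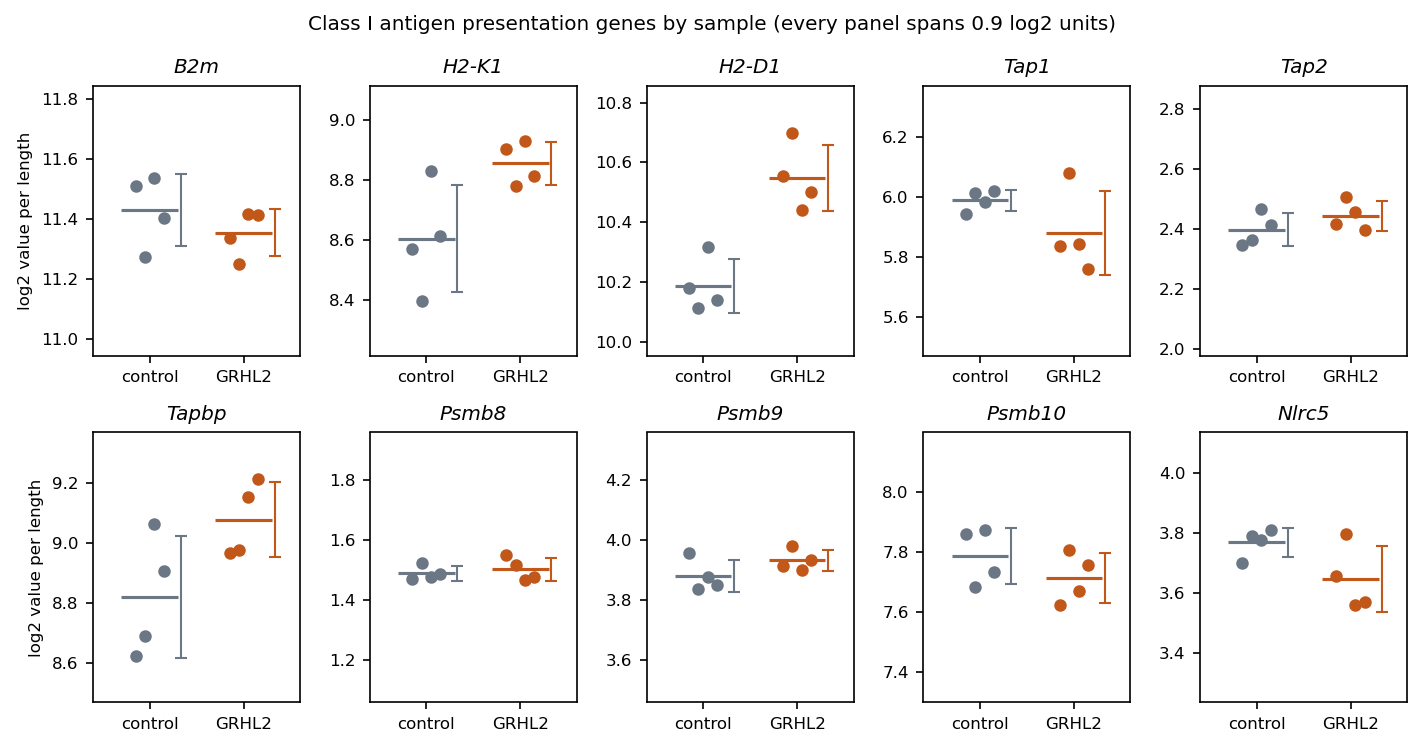
Values of the 10 class I presentation genes in each sample, with 1 panel per gene and each panel spanning 0.9 log2 units. Points are samples (control in grey, GRHL2 in orange), horizontal lines are group means and bars are 1 SD. The 4 GRHL2 samples of H2-D1 lie between 10.44 and 10.70, above all 4 control samples, whereas in the other panels the groups overlap.

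Most of the genes lie in the MHC region. Chromosome 17 holds 7 of them (GRCm38, GENCODE M21), with Tapbp 66.7 kb before H2-K1, then 181.6 kb on a cluster of Psmb9, Tap1, Psmb8 and Tap2 that spans 34.3 kb, and H2-D1 1046 kb after Tap2. Nlrc5 and Psmb10 are on chromosome 8 and B2m is on chromosome 2. Within the cluster, Tap1 and Psmb9 point away from each other, with RefSeq start sites 226 bases apart. Of the genes with the largest differences between the groups, Tapbp and H2-K1 follow each other in this order, and H2-D1 lies at its other end.

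The regions upstream of the start site were examined for the genes with a RefSeq promoter entry (GRCm38.p6), 8 of the 10, which leaves out Tap2 and Nlrc5. For the heavy chains, their partner B2m and Tapbp, the 200 bases before the RefSeq start site are shown 5′ to 3′ on the gene's strand, because the 3 genes that rose with the block are among them and B2m is the partner that did not. They lie at chr17:35262894-35263093 (H2-D1, plus strand), chr17:34000348-34000547 (H2-K1, minus strand), chr2:122147487-122147686 (B2m, plus strand) and chr17:33919278-33919477 (Tapbp, plus strand). Capitals mark matches on either strand to AANNGAAA (the core of IRF and interferon-response elements), GGGNNNNNCC (kappaB, the element of NF-kappaB), TGACG (the CRE-like X2 box) and CCAAT, and neighbouring or overlapping matches run together.
H2-D1: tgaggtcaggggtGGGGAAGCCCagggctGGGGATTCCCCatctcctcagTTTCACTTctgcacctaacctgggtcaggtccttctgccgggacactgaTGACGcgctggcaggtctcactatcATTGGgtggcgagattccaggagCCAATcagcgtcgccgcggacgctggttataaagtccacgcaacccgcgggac
H2-K1: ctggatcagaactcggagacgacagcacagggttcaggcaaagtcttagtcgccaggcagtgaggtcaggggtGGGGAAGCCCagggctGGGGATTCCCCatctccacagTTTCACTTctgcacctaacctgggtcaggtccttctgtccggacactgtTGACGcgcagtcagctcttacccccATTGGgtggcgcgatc
B2m: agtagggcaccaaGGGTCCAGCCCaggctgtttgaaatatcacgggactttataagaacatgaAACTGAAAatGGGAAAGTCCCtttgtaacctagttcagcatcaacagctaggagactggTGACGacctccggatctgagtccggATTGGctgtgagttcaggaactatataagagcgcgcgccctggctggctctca
Tapbp: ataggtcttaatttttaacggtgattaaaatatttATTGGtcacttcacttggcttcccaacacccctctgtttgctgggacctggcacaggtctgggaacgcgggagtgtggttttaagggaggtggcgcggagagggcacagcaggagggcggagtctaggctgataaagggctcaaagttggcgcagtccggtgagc

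The heavy chain promoters are close copies of each other over the stretch that they share. Where their 200-base windows align, H2-D1 and H2-K1 are 91.4% identical (128 bases identical and 12 mismatched, with 120 gap columns), whereas the other pairs among these 4 genes reach 55.9% to 67.5% (46 to 74 gap columns). In both heavy chain promoters, shared kappaB, IRF core, TGACG and CCAAT matches follow each other in the same order, each 60 bases farther from the annotated start site in H2-D1 than in H2-K1. Of the RefSeq starts of H2-K1, the one farther upstream was used, and this offset depends on that choice. The kappaB match GGGGATTCCC begins 171 bases before the start in H2-D1 and 111 bases before it in H2-K1. The IRF core match TTTCACTT (minus strand) begins 150 and 90 bases before the start, and TGACG 101 and 41 bases before it.

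B2m carries the same kinds of match, and its IRF core lies within a full interferon-stimulated response element (GAAANNGAAA, matched as GAAACTGAAA from 139 to 130 bases before the start). Tapbp holds a CCAAT match only. In the 250 bases before their starts, Tap1 and Psmb9 held TGACG, kappaB and CCAAT matches and no IRF core, and Psmb8 and Psmb10 held none of these motifs. The Tap1 and Psmb9 windows overlap, and their TGACG and CCAAT matches are the same sites read from either gene. The palindromic core of GRHL sites, AACNNGTT, was found in none of the 8 promoters. Such short motifs are common. Of 32544 promoters of this length, 46.0% hold the kappaB letters, 33.8% CCAAT, 21.3% the IRF core, 17.9% TGACG, 3.63% the GRHL core and 2.98% the full response element. These matches describe the letters in these windows only.

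Class I heavy chains. H2-D1 (ENSMUSG00000073411) encodes the classical heavy chain D, which binds the peptide. Its value was 10.18, 10.11, 10.32 and 10.14 in control replicates 1 to 4 and 10.55, 10.70, 10.44 and 10.50 in GRHL2 replicates 1 to 4. No control sample reached the lowest GRHL2 sample. Such a gap was found for 14.3% of all genes, and the opposite gap for 9.47%, whereas among the 10 genes H2-D1 was the only one with a gap in either direction. The mean was 10.19 ± 0.091 (SD, n = 4) in control and 10.55 ± 0.109 (SD, n = 4) in GRHL2 samples. This gives a log2 fold change of 0.36 (standard error 0.066, 95% interval 0.21 to 0.51, adjusted p = 0.00589, limma), or 1.28-fold on the linear scale. Replicates 1 and 2 gave a mean difference of 0.48 for H2-D1, and replicates 3 and 4 one of 0.24. H2-D1 is at GRCm38 chr17:35262730-35267499 (plus strand).

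H2-K1, at chr17:33996017-34000347 (minus strand), encodes the classical heavy chain K. Its value was 8.57, 8.40, 8.83 and 8.61 in control replicates 1 to 4 and 8.90, 8.78, 8.93 and 8.81 in GRHL2 replicates 1 to 4. Control replicate 3 was above GRHL2 replicates 2 and 4, so the groups overlapped, but each GRHL2 sample was above the control sample of its own number, by 0.10 to 0.38. Such a rise in all 4 pairs was seen for 3 of the 10 genes (H2-D1, H2-K1 and Tapbp) and for 27.3% of all genes. The log2 fold change was 0.25 (standard error 0.084, 95% interval 0.07 to 0.44) with an adjusted p of 0.068 in limma without the block and 0.00602 with it. When control replicate 3 was left out, H2-K1 reached 0.33 (adjusted p = 0.0179, limma), and without control replicate 2 it was 0.18 (adjusted p = 0.133). Per length, H2-K1 was at a lower level than H2-D1 in every sample. H2-K1 minus H2-D1 was -1.59 ± 0.101 (SD, n = 4) in control and -1.69 ± 0.168 (SD, n = 4) in GRHL2 samples, and these differences overlapped between the groups. H2-K1 and H2-D1 are close paralogs, and the counting may have dropped or shared reads between them and with other heavy chains, so the value of each is uncertain.

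Beta-2 microglobulin. B2m (chr2:122147686-122153083, plus strand), the invariant light chain of every class I molecule, had the highest value of the 10 genes. It was 11.51, 11.27, 11.54 and 11.40 in control replicates 1 to 4 and 11.33, 11.25, 11.42 and 11.41 in GRHL2 replicates 1 to 4. The groups overlapped, and the log2 fold change of -0.08 (standard error 0.066, 95% interval -0.22 to 0.07) did not pass the test (adjusted p = 0.479, limma). With a sample left out, this fold change ran from -0.13 to -0.04 (adjusted p from 0.168 to 0.741, limma). The interval of B2m does not reach the fold change of H2-D1. Patl2 covers the whole B2m gene on the other strand, and the counting disregarded strand. Patl2 was at -0.74 in control and -0.71 in GRHL2 samples, and the effect of this overlap on the B2m value was not tested.

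The heavy chains were also compared with B2m inside each sample, a comparison chosen after the values were seen. H2-D1 minus B2m was -1.24 ± 0.070 (SD, n = 4) in control samples and -0.805 ± 0.187 (SD, n = 4) in GRHL2 samples. H2-K1 minus B2m was -2.83 ± 0.102 (SD, n = 4) in control and -2.50 ± 0.073 (SD, n = 4) in GRHL2 samples. In both cases the groups did not overlap. These differences combine the values of the heavy chains and of B2m given above and are not a separate result, and how many gene pairs show such a gap was not computed.

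**Figure D2:**
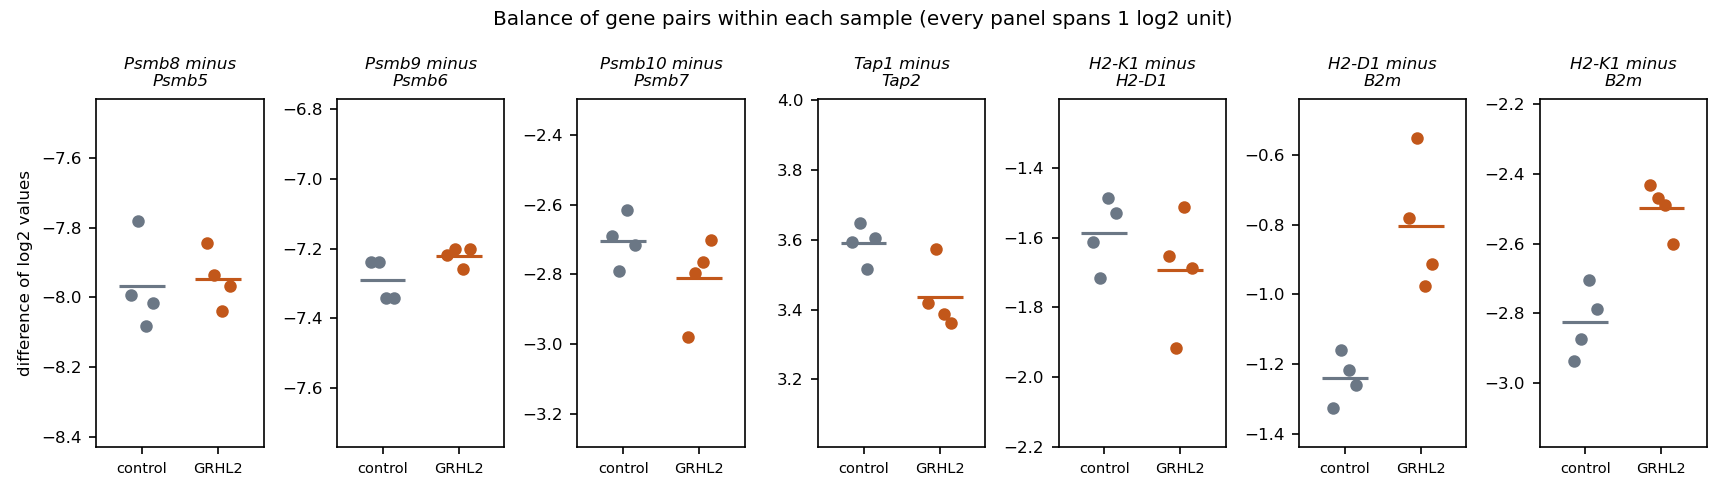
Difference between the log2 values of gene pairs inside each sample, with 1 panel per pair and each panel spanning 1 log2 unit. Points are samples and lines are group means. H2-D1 minus B2m and H2-K1 minus B2m are the panels in which the control and GRHL2 samples do not overlap.

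Peptide transport and loading. Tapbp encodes tapasin, which bridges the transporter and the class I molecule. Its value was 8.62, 8.69, 9.06 and 8.91 in control replicates 1 to 4 and 8.97, 8.98, 9.15 and 9.21 in GRHL2 replicates 1 to 4. The groups overlapped through control replicate 3, and each GRHL2 sample was above the control sample of its own number, by 0.09 to 0.34. The log2 fold change was 0.26 (standard error 0.10, 95% interval 0.03 to 0.48), with an adjusted p of 0.111 in limma without the block and 0.00387 with it. Without control replicate 3 it was 0.34 (adjusted p = 0.0413, limma), and without control replicate 1 it was 0.19 (adjusted p = 0.264). Tapbp lies at chr17:33915899-33929292 (plus strand) and overlaps Zbtb22 on the same strand over 3422 bases. Zbtb22 was at 8.28 in control and 8.33 in GRHL2 samples (log2 fold change 0.04, adjusted p = 0.630, limma).

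Tap1 and Tap2 encode the subunits of the peptide transporter. Tap1 (chr17:34187553-34197225, plus strand) was at 5.94, 6.01, 5.98 and 6.02 in control replicates 1 to 4 and at 5.83, 6.08, 5.84 and 5.76 in GRHL2 replicates 1 to 4. In 3 of the 4 GRHL2 samples Tap1 was below every control sample, and in GRHL2 replicate 2 it was above every control sample. The log2 fold change of -0.11 (95% interval -0.25 to 0.04) did not pass the test (adjusted p = 0.289, limma), whereas without GRHL2 replicate 2 it was -0.18 (adjusted p = 0.0256) and without GRHL2 replicate 4 it was -0.07 (adjusted p = 0.558).

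Tap2 (chr17:34203527-34216321, plus strand) had a much lower value than Tap1, from 2.35 to 2.47 in control and from 2.40 to 2.51 in GRHL2 samples. Its log2 fold change was 0.05 (adjusted p = 0.397, limma). Inside each sample Tap1 exceeded Tap2 by 3.59 ± 0.055 (SD, n = 4) in control and 3.44 ± 0.095 (SD, n = 4) in GRHL2 samples, with overlap between the groups. The rlog level of Tap2 corresponds to only about 7.6 normalized reads per sample, a level at which the rlog leaves little of any difference.

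Immunoproteasome. Psmb8, Psmb9 and Psmb10 encode the catalytic subunits that replace Psmb5, Psmb6 and Psmb7 in the interferon-induced proteasome. Psmb8 (chr17:34197721-34201454, plus strand) had the lowest value of the 10 genes, from 1.47 to 1.52 in control and from 1.47 to 1.55 in GRHL2 samples, which is about 3.4 normalized reads per sample. Psmb9 (chr17:34181987-34187764, minus strand) was between 3.84 and 3.95 in control and between 3.90 and 3.98 in GRHL2 samples. Psmb10 (chr8:105935735-105938444, minus strand) was between 7.68 and 7.87 in control and between 7.63 and 7.81 in GRHL2 samples, far above the other two subunits.

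None of the 3 passed the test. The log2 fold change was 0.01 for Psmb8 (adjusted p = 0.730), 0.05 for Psmb9 (adjusted p = 0.345) and -0.07 for Psmb10 (adjusted p = 0.471, limma). The subunits were also set against the standard subunit that each replaces. Psmb8 minus Psmb5 was -7.97 ± 0.131 (SD, n = 4) in control and -7.95 ± 0.081 (SD, n = 4) in GRHL2 samples. Psmb9 minus Psmb6 was -7.29 and -7.22, and Psmb10 minus Psmb7 was -2.70 and -2.81. In all 3 pairs the groups overlapped, and the standard subunits were the far more abundant ones in every sample. Tap1 and Psmb9 overlap by 212 bases on opposite strands, so reads there cannot be assigned without strand.

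Coactivator. Nlrc5 (chr8:94434356-94527272, plus strand), the transactivator of class I genes, was at 3.70, 3.79, 3.78 and 3.81 in control replicates 1 to 4 and at 3.66, 3.80, 3.56 and 3.57 in GRHL2 replicates 1 to 4. As for Tap1, the GRHL2 samples lay below every control sample except replicate 2. The log2 fold change of -0.12 (standard error 0.052, 95% interval -0.24 to -0.01) did not pass the test after adjustment (adjusted p = 0.141, and 0.0719 with the block, limma). Without GRHL2 replicate 2 it was -0.17 (adjusted p = 0.0172), and with any other sample left out it did not pass the test (adjusted p up to 0.307). For Nlrc5, replicates 1 and 2 differed by -0.02 between the groups and replicates 3 and 4 by -0.23. Nlrc5 overlaps the lincRNA 9330175E14Rik on the other strand over 748 bases, which was at 2.33 in control and 2.14 in GRHL2 samples (adjusted p = 0.000547, limma).

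**Figure D3:**
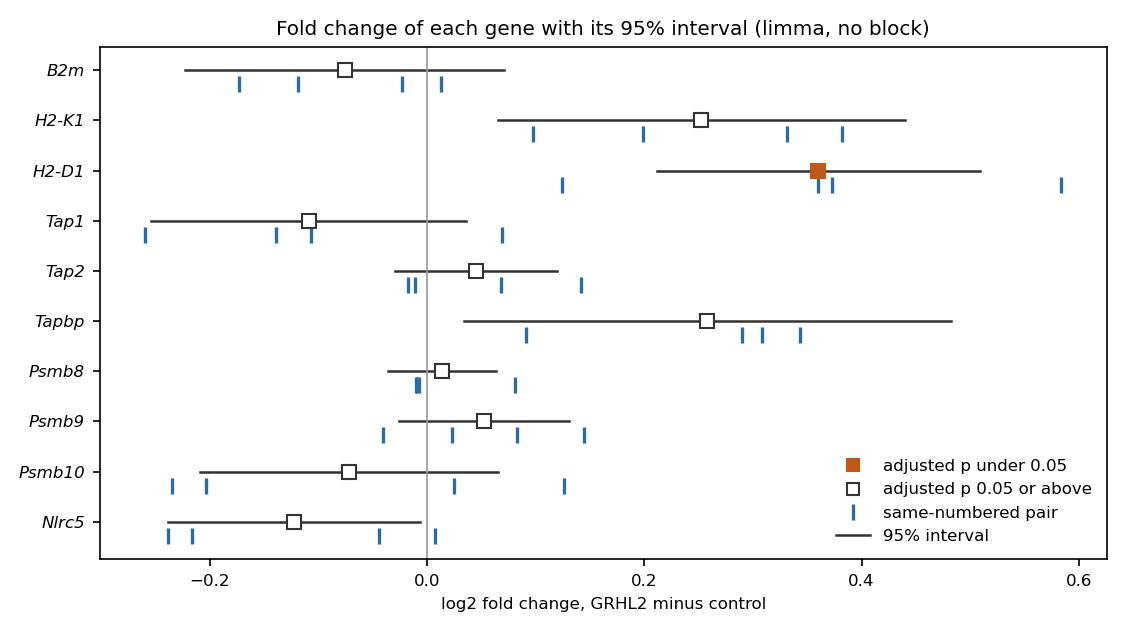
Log2 fold change (GRHL2 minus control) of the 10 genes with the 95% interval of limma without the block. Squares are fold changes, filled where the adjusted p is under 0.05, and blue ticks are the differences of the 4 same-numbered pairs. H2-D1 has the only filled square, at 0.36, and all 4 pairs are above 0 for H2-D1, H2-K1 and Tapbp.

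How the genes vary together was described over the 8 samples with the group means removed, across 45 pairs of genes that share libraries and normalization. The closest pair was Tap1 and Nlrc5 (Pearson's r 0.913), followed by Psmb9 and Psmb10 (0.787) and B2m and H2-K1 (0.759). No other pair exceeded 0.7. H2-K1 and Tapbp had an r of 0.670 and H2-K1 and H2-D1 of 0.341, whereas the lowest value, -0.744, was that of B2m and Psmb8. Over the 8 samples, with groups kept, the 5 other genes whose pattern was most like the mean of the 10 genes were B3glct (r 0.956), Thop1 (0.949), Rsph3b (0.948), Tmem241 (0.947) and Gm10814 (0.942).

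Other class I heavy chains and class I-like genes. Of 18 listed genes, 13 are in the table, of which 3 rose and 1 fell (limma), against the background of 10.5% and 5.91% given above, and the median log2 fold change was 0.03. H2-Q4 was at 3.57 ± 0.032 (SD, n = 4) in control and 3.77 ± 0.125 (SD, n = 4) in GRHL2 samples, a rise of 0.19 (adjusted p = 0.0421). H2-Q1 (0.13, adjusted p = 0.0253) and H2-T3 (0.09, adjusted p = 0.00998) rose as well, from values of 1.31 and 1.43, at few reads (about 5.9 and 3.9 normalized reads per sample) and below the filter on low values tried as an alternative. Hfe, a class I-like protein of iron homeostasis, fell by 0.13 on the log2 scale (adjusted p = 0.0141). H2-T22, which had the highest value of this list, was at 7.73 in control and 7.74 in GRHL2 samples (adjusted p = 0.98). Those of the H2-Q and H2-T families are close paralogs too, and their values carry the same uncertainty as those of H2-K1 and H2-D1.

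Loading, trimming and standard proteasome genes. Of 13 genes for chaperones and peptidases of the pathway, none rose and 1 fell, and the median log2 fold change was -0.02. The gene that fell was Hspa5, a chaperone of the endoplasmic reticulum (log2 fold change -0.30, adjusted p = 0.0118, limma). With the block, Tapbpl, a tapasin-related peptide editor, was called higher (0.20, adjusted p = 0.00474, against 0.0898 without the block), and Canx was called lower beside Hspa5. Of 10 standard subunits, activators and assembly factors, none rose and Psmg2, an assembly chaperone, fell by 0.15 (adjusted p = 0.0335), a call that was lost when the samples were set to an equal upper quartile or an equal sum. Psmb5, Psmb6 and Psmb7 had log2 fold changes of -0.01, -0.02 and 0.03. The interferon-inducible activator subunits Psme1 and Psme2 had log2 fold changes of 0.14 (adjusted p = 0.494) and 0.20 (adjusted p = 0.139, and 0.0103 with the block).

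Transcriptional regulators of class I genes. Of 17 genes, 1 rose and 1 fell, and the median log2 fold change was -0.07. Stat3 rose by 0.15 (adjusted p = 0.0490, limma), and Nfyb, a subunit of the factor that binds CCAAT, fell by 0.29 (adjusted p = 0.0131). With the block, 3 were called higher and 4 lower, against 18.2% and 13.9% of all genes. Beside Nfyb, Creb1 (-0.14, adjusted p = 0.0455) and Irf9 (-0.16, adjusted p = 0.04955) were among those called lower with the block. For Irf1, an activator of class I promoters, the log2 fold change was 0.16 (adjusted p = 0.468, and 0.0268 with the block). Rfx5, which binds the X box, differed by 0.16 on the log2 scale (adjusted p = 0.0543, and 0.0333 with the block). Ciita, the class II counterpart of Nlrc5, was at 0.02 in control and 0.01 in GRHL2 samples (adjusted p = 0.811).

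Interferon response. None of the 10 genes for interferon receptors and their signalling rose, and Usp18, a negative regulator of the type I receptor, fell by 0.49 (adjusted p = 0.0448, limma). With the block, the receptor kinase Jak2 was called higher (0.16, adjusted p = 0.0222), and Jak1 (-0.15, adjusted p = 0.0106) and the phosphatase Ptpn2 (-0.15, adjusted p = 0.0422) were called lower beside Usp18. Of 20 interferon-stimulated genes outside the class I pathway, none rose and 11 fell (15 with the block), and all 20 log2 fold changes were negative, with a median of -0.27. The largest decreases were those of Ifit3 (-1.88), Ifit1 (-1.63) and Cxcl10 (-1.13). Cxcl10, a T cell chemokine, was between 6.94 and 7.25 in control and between 5.91 and 6.06 in GRHL2 samples. This list was drawn up with the fall of Ifit genes known and is not independent evidence of its direction. Against these values, the 4 negative log2 fold changes among the 10 class I presentation genes reached at most -0.12, and the 6 positive ones up to 0.36.

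**Figure D4:**
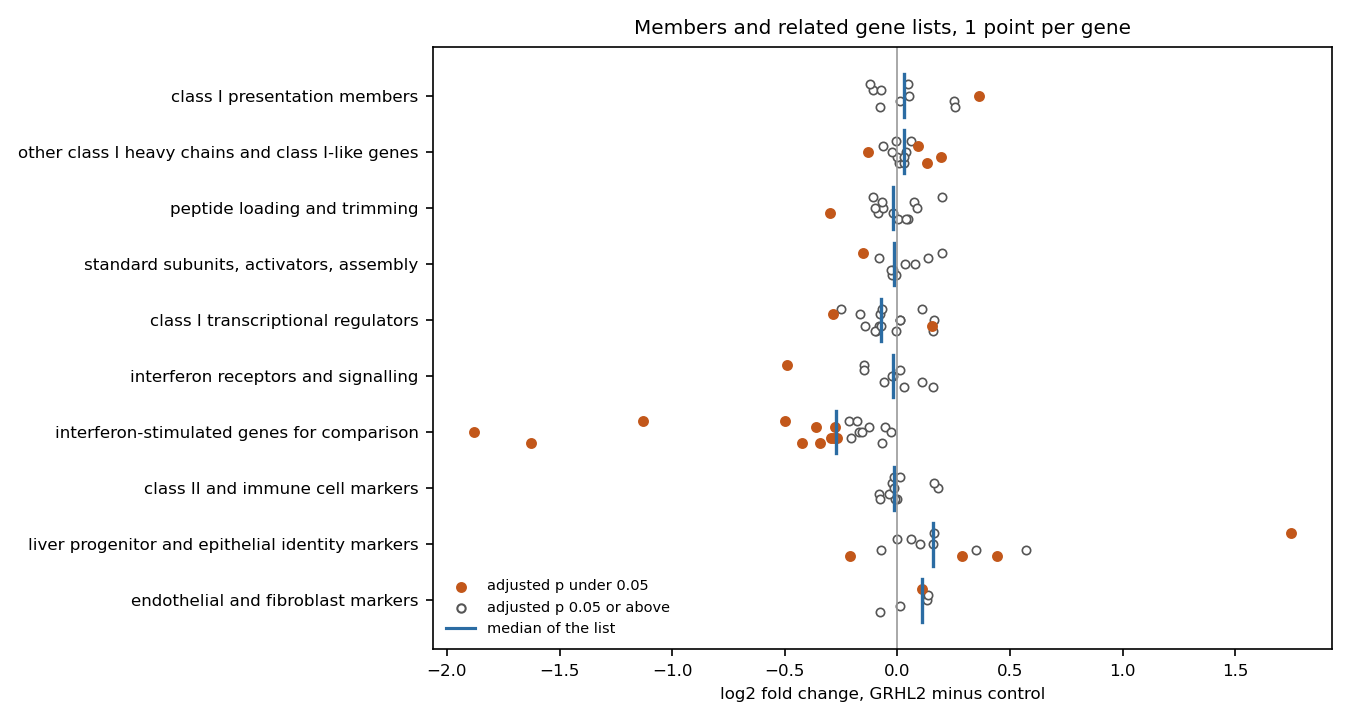
Log2 fold change (GRHL2 minus control) of the 10 class I presentation genes and of the related lists, with 1 point per gene. Filled points have an adjusted p under 0.05 (limma, no block), and blue lines are list medians. The interferon-stimulated genes lie wholly below 0 with 11 filled points, whereas the class I presentation genes lie on both sides of 0 with 1 filled point.

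Markers of other cells. Class I genes are abundant in immune and endothelial cells, so markers of such cells were read in the same samples. Of 15 class II and immune cell markers, 11 are in the table, and none passed the test without the block (limma). With the block, 2 were called higher and 1 lower, against 18.2% and 13.9% of all genes. H2-Aa, H2-Ab1, Adgre1 and Tyrobp are not in the table. Ptprc, the pan-leukocyte marker, was at 0.90 in control and 0.88 in GRHL2 samples, and Cd3e was at 0.15 and 0.13. The summed level of this list, on the log2 scale, was 7.17 to 7.25 in control and 7.29 to 7.35 in GRHL2 samples, which do not overlap. This sum is led by its most abundant markers, whereas 8 of the 11 log2 fold changes were negative and their median was -0.01. Cd68 and H2-DMa, the markers with the highest values, had log2 fold changes of 0.16 (adjusted p = 0.0559, and 0.0205 with the block) and 0.18 (adjusted p = 0.116, and 0.0152 with the block). Itgam, an integrin of myeloid cells, was the marker called lower with the block (-0.08, adjusted p = 0.0386). Of 7 endothelial and fibroblast markers, 5 are in the table, Pdgfrb, at only about 4.8 normalized reads per sample, rose by 0.11 (adjusted p = 0.00886), and Kdr (0.13, adjusted p = 0.0411) and Col1a1 (0.13, adjusted p = 0.0281) were called higher too with the block. Of the endothelial markers, Kdr was thus called higher with the block, whereas Pecam1 and Cdh5 were not called in either fit, with log2 fold changes of -0.08 and 0.01. The summed level of this list was 5.65 to 5.86 in control and 5.80 to 5.99 in GRHL2 samples. The part of these levels in the class I values was not tested.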

How the data were processed

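RNA-seq values of 8 samples, 4 per group, were used, with groups and replicate numbers as given in the sample labels. The table deposited by the authors holds log2 values, although it is named for FPKM. The methods describe mapping to mm10, exon counting that disregards strand (minimum alignment quality 10), removal of genes under 10 reads in all, and division of rlog values by transcript length. It was assumed that this applies to BMEL cells. The submitters' processing notes name HISAT2 2.2.1, HTSeq 0.9.1 and DESeq2 1.40.2 and the builds mm10 and GRCm39. The table's values run from -2.85 to 18.01 with 4.81% below 0 and were read as rlog less log2 transcript length in kb. Approximate read numbers are 2 to the power of this rlog level, with mean GENCODE M21 transcript lengths.

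All 18671 genes were tested with limma 3.58.1 in R 4.3.3 (2 groups, mean-variance trend, Benjamini-Hochberg adjustment, threshold 0.05), without a block. A filter and pseudocount meant for linear FPKM were used as alternatives only. Same-numbered samples correlated in their deviations from the group means in every pair (Pearson's r across genes 0.474 to 0.645, mean 0.558), against a mean of -0.183 and a range of -0.611 to 0.602 for different numbers, which correlated positively within replicates 1 and 2 and within replicates 3 and 4. By this measure the numbers, which come from the labels, were taken to pair the samples. However, GRHL2 replicate 3 correlated more with control replicate 4 (0.602) than with control replicate 3 (0.549). The paper's figure legend on these RNA-seq data gives 4 independent biological replicates. Alternatives were the replicate block, an equal upper quartile, an equal sum, no mean-variance trend, a minimum mean at the lower quartile of genes (2.57), a pseudocount of 1, a term for replicates 1 and 2 against 3 and 4, and each sample left out. Named genes were the 10 members, Grhl2, up to 3 called genes with the largest change in each list, 8 further genes (Psmb5, Psmb6, Psmb7, Psme1, Psme2, Irf1, Rfx5 and Ciita), and the 5 genes most like the members' mean. Another gene of this rule is not reported here. Tapbpl, Canx, H2-T22, Creb1, Irf9, Ptprc, Cd3e, Cd68, H2-DMa, Itgam, Jak1, Jak2, Ptpn2, Kdr, Col1a1, Pecam1, Cdh5 and overlapping genes were named after their values were seen. Members and lists were chosen with earlier results of these data known. Positions are GENCODE M21 on GRCm38, and promoters are those of RefSeq (GRCm38.p6). Starts can differ between these annotations, and the promoter windows of H2-D1 and Tapbp lie inside their GENCODE spans. Motifs were searched on both strands of the 250 bases before the start.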

Additional observations from a re-analysis of the deposited data

How the results depend on the processing

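The rise of H2-D1 passed the threshold under all 15 alternatives, with adjusted p from 0.00148 to 0.00948 over the 7 other settings and from 0.00654 to 0.0216 with a sample left out (limma; log2 fold change 0.31 to 0.40). The number of the 10 genes called higher was 1, and it was 3 with the replicate block, 2 with an equal upper quartile, 2 with an equal sum and 3 with the term for replicates 1 and 2 against 3 and 4. H2-K1 entered under all 4 of these (adjusted p 0.00602, 0.0460, 0.0393 and 0.0174), and Tapbp under the block (0.00387) and the replicate term (0.00222). With a sample left out, the count was 1 to 3, with 3 without control replicate 3 (H2-K1 adjusted p = 0.0179, Tapbp 0.0413). The number called lower was 0, with 1 gene (Nlrc5) at an unadjusted p under 0.05, and 0 to 2 with a sample left out, with 2 without GRHL2 replicate 2 (Tap1 adjusted p = 0.0256, Nlrc5 0.0172). Among the other class I genes, 5 were called higher and 1 lower with an equal upper quartile or an equal sum, against 3 and 1, and in the list of standard proteasome genes the 1 gene called lower, Psmg2, was lost under both scalings. Psmb8 changed sign without GRHL2 replicate 1 (-0.0021). Of 148 gene results under alternatives, 137 kept their direction and side of the threshold, 10 newly passed it and 1 reversed. The filter removes Psmb8 and Tap2, which have no value there. The cause of these differences was not tested.

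Over all genes, 1957 were called higher, against 3396 with the replicate block, 3064 with an equal upper quartile, 1280 with the filter, 3270 with the replicate term and 1326 to 1848 with a sample left out. The number called lower was 1104, against 2589 with the replicate block, 2478 with the replicate term and 690 to 1036 with a sample left out (691 without control replicate 1, 722, 690 and 719 without GRHL2 replicates 1, 3 and 4). Higher genes made up 63.9% of calls, 75.9% with an equal upper quartile and 77.0% with an equal sum, and no scaling moved the median of all genes by more than 0.0241. The depth is unknown, and differences of Psmb8, Tap2 and Psmb9, at about 3.4, 7.6 and 16.4 normalized reads, are those the rlog shrinks most.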
